A study of Drosophila melanogaster with 4 samples.

Results

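The regions described are the stretches of chromosome arm 3R that carried acetylated lysine 27 of histone H3 (H3K27ac) in heads of adult fruit flies, with the 2 spans of the arm that hold the Hox gene complexes. The members are the 3R enrichment clusters of ChIP replicate 1 that shared at least 1 bp with a cluster of ChIP replicate 2. They number 1265 of the 1387 clusters of replicate 1 on the arm, which is 91.2% (95% Wilson interval 89.6 to 92.6, counting error only), beside 91.9% over all sequences, where 5423 of 5898 clusters met the same condition. That overlap is the rule that chose the members, so nothing is read from the share.

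The study used ChIP-seq, in which chromatin pulled down with an antibody is sequenced, on 2 ChIP libraries, each with an input library as its background, from head nuclei of the wild-type strain Oregon-R at the stage labelled mixed adult. The flies came from population cages, heads were sorted from whole animals with sieves, and the antibody was from Active Motif. The values used are the authors' lists of enrichment clusters on release 5 of the genome, 1 per ChIP replicate and 1 for the replicate set, in which each cluster has a position and a score. The labels do not state that the replicates were separate collections of flies, so the spread between them may be technical, and neither the sex of the flies nor the read depth is known.

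H3K27ac is placed by histone acetyltransferases at active promoters and enhancers. The same lysine can instead be methylated by Polycomb repressive complex 2, and a single residue cannot carry both marks. Hox genes encode homeodomain transcription factors that give body segments their identity, and they are the classical targets of Polycomb repression in flies. In the Antennapedia complex, lab, pb, Dfd, Scr and Antp act in the head and the anterior thorax. The genes zen, zen2, bcd and ftz lie in the same complex, and zen, bcd and ftz act in patterning the early embryo. In the bithorax complex, Ubx, abd-A and Abd-B act in the posterior thorax and the abdomen, parts of the body that a head preparation lacks.

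In the RefSeq gene table of release 6, the complex genes all lie on 3R, in the order lab, pb, zen2, zen, bcd, Dfd, Scr, ftz and Antp for the first and Ubx, abd-A and Abd-B for the second. From lab to Antp that table lists 43 genes, 19 of them protein coding. Among these are cuticle protein genes of the Ccp84A group and Ama, which encodes a secreted immunoglobulin-domain protein, and among the non-coding ones are the microRNA gene mir-10 and genes of lysine tRNA. From Ubx to Abd-B it lists 16 genes, 6 of them protein coding, with the long non-coding RNAs bxd and iab8 and the microRNA genes mir-iab-4 and mir-iab-8. The 5 genes listed before lab are Ass, Taf1, CG1307, twr and agt, and the protein-coding genes nearest after Antp are CG46458 and Sodh1. Before Ubx the list has CG10324, CCT3, Mettl4, CG14907 and modSP, and the protein-coding genes nearest after Abd-B are VhaM9.7-d and Actn3. That table is on another release than the clusters, so it gives names and order only, and no cluster was assigned to a gene. For the same reason the label of head tissue was not checked against head genes.

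The Antennapedia span, taken as 2.48 to 2.89 Mb of 3R, carried almost no H3K27ac cluster. Clusters covered 1.03% of its 410 kb in replicate 1 and 0.95% in replicate 2, a mean of 0.99% ± 0.06 (SD, n = 2, as for all values with ±). These bases belong to 2 narrow members at the first edge of the span. One ran from 2481937 to 2484298 in replicate 1, where it scored 0.73, and scored 0.69 in replicate 2. The other ran from 2484641 to 2486513 in replicate 1 and scored 0.33 and 0.42 in the 2 replicates. From 2486514 to 2891324, over 405 kb, neither replicate list held a cluster, and no other free stretch of the arm was as long among 1430. The bounds of the span lie close to the ends of that stretch, so the low coverage is in part set by where the bounds were placed and is given as a description.

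The region with few clusters began before the Antennapedia span. The 50 kb to its left held no cluster in either replicate, within a free stretch of 61.2 kb from 2420728 to 2481936. Over the 471 kb from 2420728 to 2891324 the 2 narrow members were the only clusters of either replicate list, and they covered 0.87% ± 0.05. On the right, 60.8% ± 4.19 of the next 50 kb was under clusters. The first cluster there, from 2891325 in replicate 1, scored 0.86 in replicate 1 and 0.85 in replicate 2. It was followed by a member that scored 1.80 and 1.70, starting at 2899546 in replicate 1. A domain of 11015 bp in replicate 1 and 9691 bp in replicate 2, starting at 2910535 in replicate 1, scored 1.87 and 1.95. In all, this right flank was touched by 7 clusters of replicate 1 and 6 of replicate 2. The 50 kb on either side of the span thus differed, with no cluster on the left and clusters of low to high score on the right. Within the free stretch the replicate-set list had a single cluster, from 2882848 to 2884017, with a score of 0.32.

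The bithorax span, taken as 12.48 to 12.81 Mb, was covered to 1.95% in replicate 1 and 2.15% in replicate 2, a mean of 2.05% ± 0.14. Of the 4 members that touched it, 2 crossed its bounds and 2 lay inside. At the left bound a member from 12479419 to 12482124 in replicate 1 scored 0.57 there and 0.74 in replicate 2. At the right end the span held a member from 12806776 to 12808860, scoring 0.61 and 0.64, and a further one from 12809671 to 12814420 crossed the bound, scoring 1.34 in both replicates. The bounds of this span, too, lie close to the ends of a sparse stretch, from 12482172 to 12806382. Its low coverage is therefore also in part set by where the bounds were placed. Between these edges, over 324 kb, both replicates agreed on 1 cluster and 1 only.

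That cluster lay 20.5 kb to the left of the centre of the bithorax span, from 12623515 to 12625403 in replicate 1 and from 12623495 to 12625446 in replicate 2. It was 1889 bp wide in replicate 1 and 1952 bp in replicate 2, with starts 20 bp apart. Its scores of 0.10 and 0.31 were at the bottom of both lists, at rank 2 from the lowest of 1387 and rank 30 of 1392. In replicate 1 no other member scored lower. The position was therefore shared closely between the replicates while the enrichment was among the weakest called on the arm. It split the span into free stretches of 141 kb and 181 kb, which were the 7th and the 4th longest of the arm. The flanks were not bare, with 31.0% ± 0.74 of the 50 kb on the left and 28.6% ± 0.50 of the 50 kb on the right under clusters. The 6 clusters that touched the left flank scored 0.16 to 1.44 in replicate 1 and 0.25 to 1.39 in replicate 2. On the right, the 4 clusters scored 0.90 to 1.34 in replicate 1 and 0.78 to 1.34 in replicate 2.

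**Figure D1:**
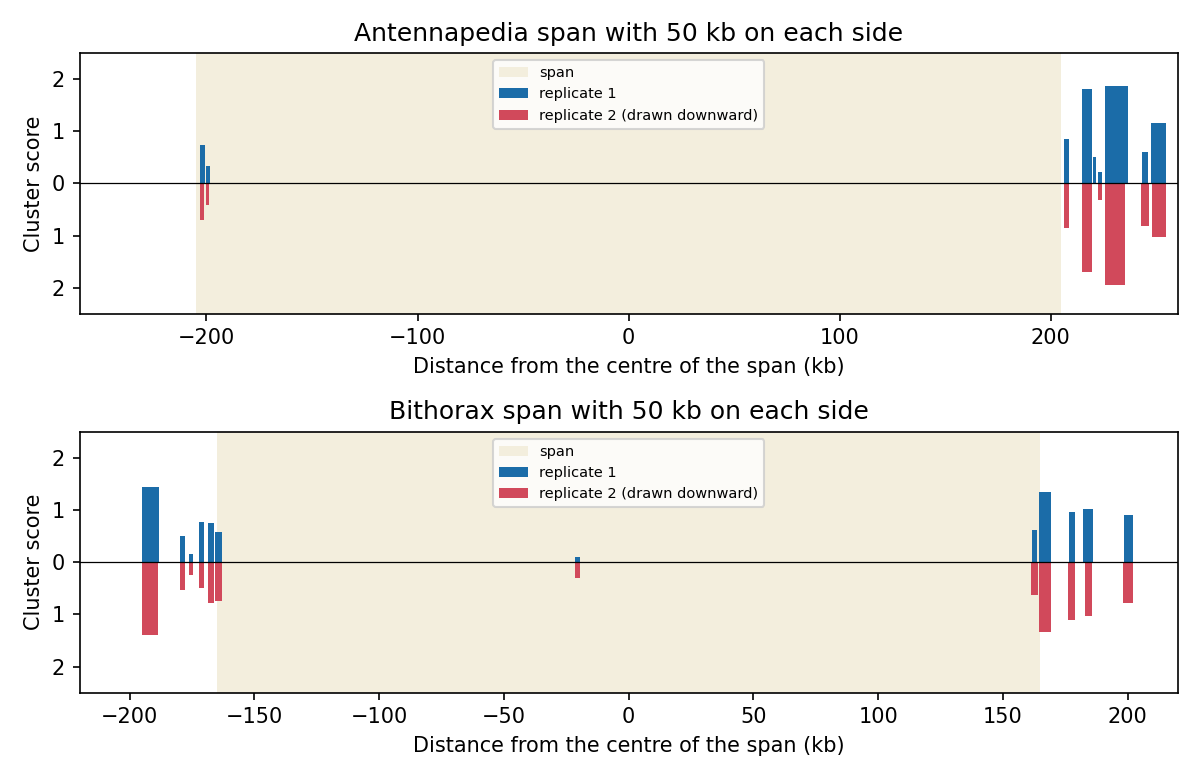
Clusters of both ChIP replicates in and around the Antennapedia span (top) and the bithorax span (bottom), by distance from the centre of the span in kb; bar width is cluster width, bar height is the authors' score, replicate 2 is drawn downward and the shaded area is the span. The Antennapedia span has clusters at its left edge only, and the bithorax span has 1 weak cluster near its centre, with a score of 0.10 in replicate 1 and 0.31 in replicate 2.

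Set against windows of equal length on the same arm, both Hox spans lay at the low end. The Antennapedia span at 0.99% was below all 2669 windows of 410 kb that did not touch it, laid in steps of 10 kb, whose coverage ran from 3.53% to 58.8% with a median of 21.4%. The same held in each replicate alone. The lowest of these windows, from 1740001 to 2150000, was still covered to 3.53%, and no window of that length held fewer than 5 clusters in either replicate, against 2 in the span. For the bithorax span at 2.05%, 17 of 2693 windows of 330 kb (0.63%) were as low or lower, against a median window of 21.2%. Of those 17 windows, 16 touched the Antennapedia span. The remaining one, from 1840001 to 2170000, was covered to 1.87%. Among the 2620 windows clear of both spans, that window alone lay at or below the bithorax span. Neighbouring windows overlap and come from the same 2 libraries, so these ranks describe the arm and carry no p-value.

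**Figure D2:**
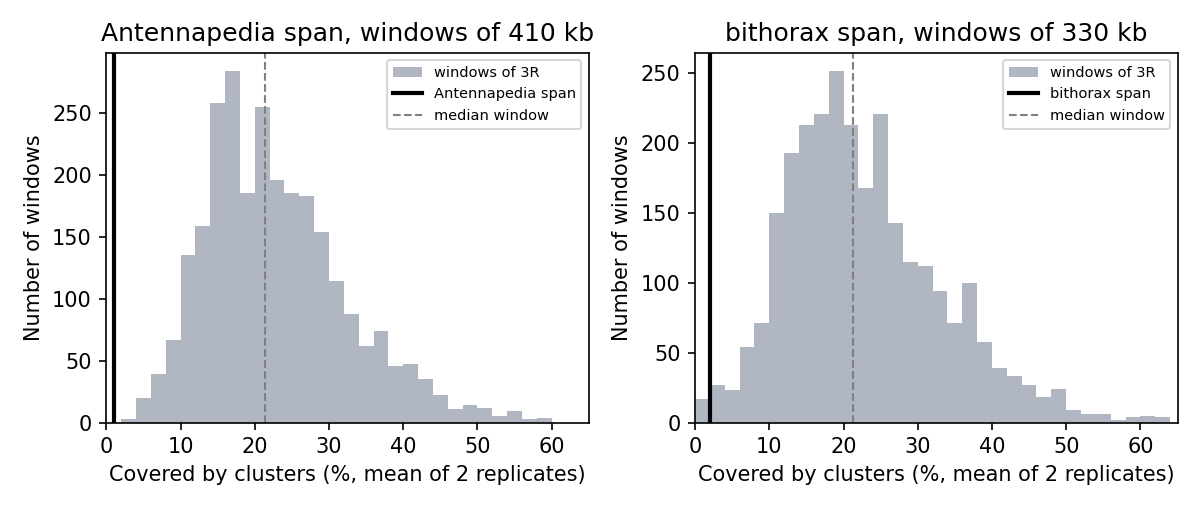
Number of windows of 3R by the percent of their bases under clusters, as the mean of 2 replicates, for windows of the length of the Antennapedia span (left, 410 kb) and of the bithorax span (right, 330 kb); the solid line is the span and the dashed line the median window. Both spans, at 0.99% and 2.05%, lie left of nearly all windows of their length, whose medians are 21.4% and 21.2%.

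In members per length the spans held 4.88 (Antennapedia, 2 members) and 12.1 (bithorax, 4 members, 2 of them only partly inside) per Mb, against 45.3 per Mb over the whole arm. Other bounds gave other values. With 10% of the length added at each end, the Antennapedia span was covered to 5.52% and the bithorax span to 8.26%, and 0.26% and 3.22% of the windows of the same length lay as low or lower. With 10% removed at each end, the Antennapedia span was covered to 0% and the bithorax span to 0.73%.

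Along the whole arm, H3K27ac clusters alternated between dense and sparse stretches, and both replicates followed the same course. In 55 full windows of 500 kb, coverage ran from 8.33% to 52.5% with a median of 22.7% and an SD between windows of 9.23 percentage points. The SD between replicates of a window had a median of 0.56 percentage points and reached 3.15. Across windows, Spearman's rho between the replicates was 0.98 and Pearson's r 0.99, given as a description because all windows share the same 2 libraries.

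**Figure D3:**
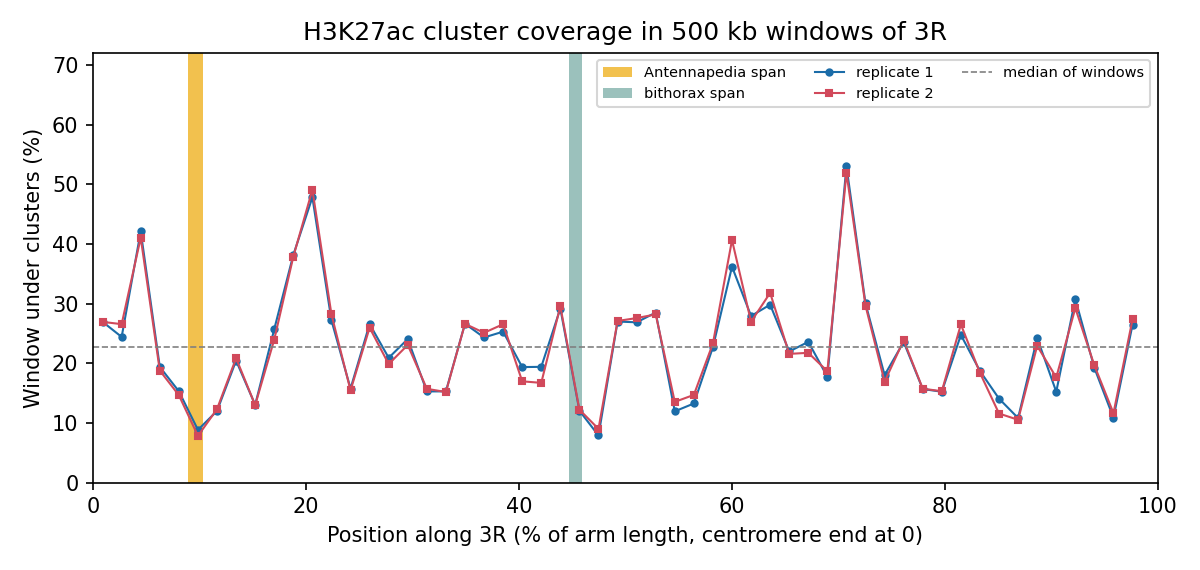
Percent of each 500 kb window of 3R under clusters in replicate 1 (circles) and replicate 2 (squares) against position as a percent of the arm, with the centromere end at 0; bands mark the 2 Hox spans and the dashed line the median window of 22.7%. The 2 windows of lowest mean over the replicates, 8.33% and 8.45%, lie at the first band and just after the second. The highest window has a mean of 52.5% ± 0.80.

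The densest windows reached their coverage in different ways. The window from 19500001 to 20000000 was covered to 52.5% ± 0.80 and held 42 members, 10 of them 10 kb or wider, but only 2 scored 1.5 or more. Its highest member score was 1.82. The window from 5500001 to 6000000 was covered to 48.4% ± 0.89 with 38 members, 8 of them 10 kb or wider, and 5 scored 1.5 or more, up to 2.52. From 1000001 to 1500000, 41.6% ± 0.74 was covered by 43 members, of which 2 reached 10 kb, so that many clusters of moderate width filled the window. The window from 16500001 to 17000000 had 38.4% ± 3.15 and showed the largest spread between replicates of all windows, with 36.2% in replicate 1 and 40.6% in replicate 2. That from 5000001 to 5500000 had 38.0% ± 0.21. The last 2 differed by less than the spread of the first of them, so their order is not resolved.

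The sparsest windows included those that hold most of each Hox span. Windows beside them were not all sparse: the window from 12000001 to 12500000, before that of the bithorax span, was covered to 29.4%. The window from 2500001 to 3000000, which holds most of the Antennapedia span, had 8.33% ± 0.71. The window from 13000001 to 13500000, which begins after the bithorax span, had 8.45% ± 0.78, so the 2 are not resolved: replicate 1 had 7.89% here against 8.83% there, and replicate 2 had 9.00% against 7.83%. Its 13 members had a median score of 0.66, against 0.82 for all members. Then came 24000001 to 24500000 with 10.7% ± 0.21, 26500001 to 27000000 with 11.2% ± 0.55, and 12500001 to 13000000, which holds most of the bithorax span, with 12.1% ± 0.12. Low coverage did not always go with low scores. In the window of the Antennapedia span the 9 members had a median score of 0.86, and in that of the bithorax span the 12 members had a median of 0.94. All 9 members of the first window lay outside the Antennapedia span, and most of the 12 in the other lay outside the bithorax span. These medians therefore do not describe the spans. Members wholly inside the spans scored 0.10 to 0.73 in replicate 1 and 0.31 to 0.69 in replicate 2.

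The arm held 1430 stretches free of clusters in both replicates, with a median length of 5421.5 bp. Of these, 102 were 50 kb or longer, in sum 33.3% of the arm, 30 were 100 kb or longer, in sum 14.8%, and 2 reached 200 kb. After the stretch in the Antennapedia span, the next was 233 kb, from 1937608 to 2170734, and held no cluster of the replicate-set list. On its left it was bordered by a cluster of replicate 1 alone that scored 0.67, and on its right by a member scoring 0.47 in replicate 1 and 0.43 in replicate 2. The third, 182 kb from 7072559 to 7255028, was bordered on the left by a member scoring 1.67 and 1.57 and held 8 clusters of the replicate-set list, so it was free in the 2 replicate lists alone. The fourth was the right part of the bithorax span. The fifth, 171 kb from 23572639 to 23743993, lay between a member that scored 1.24 and 1.06 on its left and, on its right, a cluster of replicate 2 alone that scored 0.27. It held 2 clusters of the replicate-set list. No cluster of the replicate-set list lay wholly inside the free stretches of the bithorax span.

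From the centromere to the telomere the arm showed no steady trend. Cut into 4 equal parts, starting at the centromere, it was covered to 24.0% ± 0.03, 20.8% ± 0.18, 26.2% ± 0.27 and 19.2% ± 0.02. The 2 Mb at the centromere end exceeded the 2 Mb at the telomere end by 8.82 ± 0.18 percentage points, in both replicates. With ends of 1 Mb the difference was 3.91 percentage points. On the other major arms the same difference in coverage ran the other way, with 9.43% at the centromere end against 24.4% at the telomere end on 2L, 10.8% against 24.7% on 2R, 5.37% against 28.2% on 3L and 10.4% against 29.2% on the X. With 2 replicates of 1 condition no test of the difference between arms was made. How much pericentromeric sequence each arm holds at its centromere end was not examined. The ends may therefore be unlike in sequence, and the contrast is not read as a trait of 3R.

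In cluster density 3R lay within the range of the other autosome arms. It held 49.8 ± 0.13 clusters per Mb, against 53.8 ± 0.13 on 2R, 47.0 ± 0.23 on 3L and 45.6 ± 1.78 on 2L. Clusters of 10 kb or more made up 8.67% ± 0.38 of the clusters of 3R and 30.5% ± 1.12 of its covered bases, against 9.05% ± 0.26 and 31.7% ± 0.41 on 3L, 7.92% ± 0.58 and 27.2% ± 0.69 on 2L, 7.08% ± 0.33 and 26.1% ± 0.54 on 2R, and 12.3% ± 0.21 and 39.2% ± 0.42 on the X. Median widths were 2995.5 ± 7.78 bp on 3R, 3002 ± 7.07 bp on 2R and 2998.75 ± 18.7 bp on 3L, which differ by less than the spread on 3L. On 2L the median was 3007.5 ± 62.9 bp, and on the X it was higher, at 3379.5 ± 21.9 bp. Of the clusters of replicate 1, 92.2% on 2L, 91.5% on 2R and 91.4% on 3L overlapped replicate 2.

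Most members were a few kilobases wide, and wider members scored higher. In replicate 1 their widths ran from 1303 to 57579 bp with a median of 3184 bp, and their scores from 0.10 to 2.51 with a median of 0.84. The matched clusters of replicate 2, counted once per member, had a median of 3402 bp and scores from 0.06 to 2.53 with a median of 0.83. Counted once each, the clusters of replicate 2 that overlapped replicate 1 had medians of 3196 bp and 0.80. A difference of 1 in score is a doubling on the linear scale, as the values themselves show. By mean width over both replicates, the 176 members under 2 kb had a median score of 0.48, the 690 of 2 to 5 kb 0.77, the 270 of 5 to 10 kb 1.09, and the 129 of 10 kb or more 1.36. Those 129 were 10.2% of the members and held 32.0% of their bases in replicate 1. Widths and scores of these classes, as of the windows above, average each member with its match. A narrow member matched to a broad domain therefore counts as wide. A member of 1599 bp in replicate 1, matched to 24164 bp, was placed at 12.9 kb. In all, 119 members shared their match with another member. In replicate 1 alone, rho between width and score was 0.80. Of the 99 members scoring 1.5 or more, 45 were 10 kb or wider, against 129 of all 1265 members. Only 10 of the 99 were narrower than 5 kb, whereas among all members 176 were under 2 kb and 690 were 2 to 5 kb. High scores thus went with width, though not in every member.

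**Figure D4:**
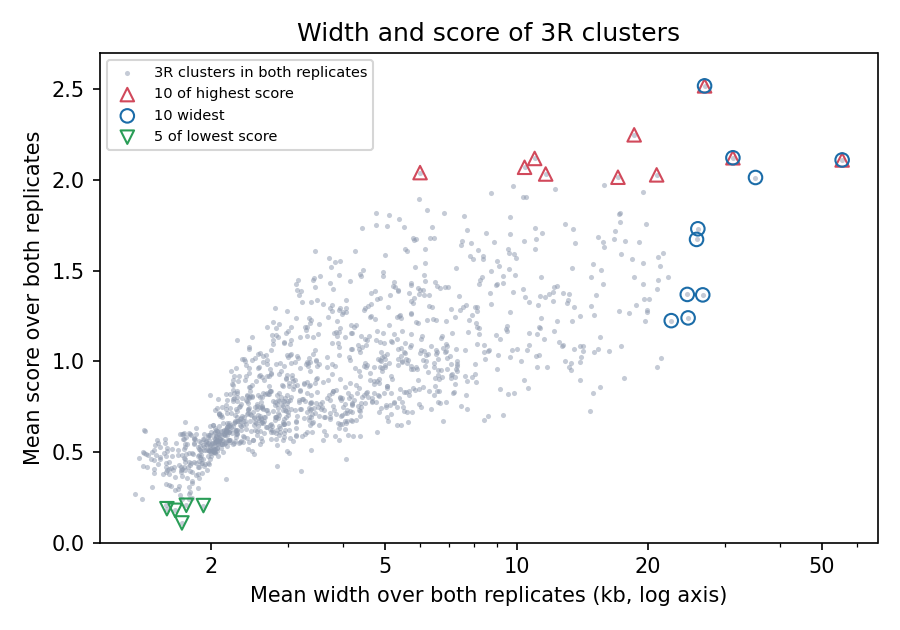
Mean score against mean width in kb (log axis) of the 1265 clusters of 3R found in both replicates, with the 10 of highest score (triangles up), the 10 widest (circles) and the 5 of lowest score (triangles down). Scores rise with width, and 3 regions are among both the highest and the widest.

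The region from 5901794 to 5928610 had the highest score of the arm, with 2.51 in replicate 1 and 2.53 in replicate 2, and it ranked first in both. The second, from 5162789 to 5181257, scored 2.20 and 2.30, and the third, from 5242138 to 5271634, scored 2.08 and 2.17. These 3 regions lie within 766 kb of each other. The other 7 of the 10 highest had mean scores from 2.01 to 2.12, starting at 7580224, 12030023, 17451620, 9508409, 8835800, 13524529 and 16773249. From the third on the order is not resolved: the region from 5242138 ranked 6th in replicate 1 and 4th in replicate 2, the region from 13524529 ranked 5th in replicate 1 and 14th in replicate 2, and the SDs between replicates of 0.03 to 0.09 cover much of the range. At 6.02 ± 0.02 kb the region from 9508409 was the narrowest of the 10, with scores of 2.01 and 2.07.

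The widest member, from 12030023 to 12083656, was 57579 bp wide in replicate 1, against 53667 bp in replicate 2, and scored 2.09 and 2.13. It lies 396 kb to the left of the bithorax span. Next came the region from 5751947 to 5785764 (35.2 ± 1.76 kb) and those from 5242138 (31.3 ± 2.52 kb) and 5901794 (26.9 ± 0.11 kb), so that 3 of the 4 widest started between 5242138 and 5901794. The others among the 10 widest started at 17008991, 10551732, 2217632, 27251715, 19724999 and 19690245 and measured 22.6 to 26.7 kb, with mean scores of 1.22 to 1.73. In replicate 1 the region from 19690245 was 15535 bp wide, whereas replicate 2 had 1 cluster of 29668 bp that met 3 clusters of replicate 1.

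At the other end, the 5 members of lowest mean score (0.11 to 0.21) were 1.58 to 1.92 kb wide. Of these, 2 belonged to the bithorax region, the cluster near the centre of the span described above and one from 12468806 to 12470511 in its left flank, which scored 0.16 and 0.25. The other 3, from 17496714, 7414743 and 16675922, scored 0.15, 0.13 and 0.16 in replicate 1 and 0.06, 0.22 and 0.21 in replicate 2.

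Scores of the members followed each other closely between the replicates, with rho 0.88 and r 0.91 over 1265 members. The absolute difference had a median of 0.09, and 1164 members differed by less than 0.25. Replicate 1 scored higher for 742 members and replicate 2 for 523, with a median of replicate 2 minus replicate 1 of -0.03. For the 1074 members matched 1 to 1, starts lay a median of 116 bp apart and ends 133 bp apart. A further 78 members met 2 or more clusters of replicate 2, and 119 shared their partner in replicate 2 with another member. Those shared partners gave the 5 largest differences, of 0.79 to 1.39, all toward replicate 2. Matching started from replicate 1, so only clusters of replicate 1 could share a broad partner. The direction of these differences is therefore in part set by the matching. The member from 5785768 to 5789134 in replicate 1 scored 0.59 there and 1.98 by its match, because the match was the domain from 5751947 to 5788425. Among members matched 1 to 1 the largest differences were all toward replicate 1. The member from 25047955 to 25049724 scored 0.94 in replicate 1 and 0.26 in replicate 2, the one from 22550003 scored 1.24 and 0.66, and the one from 11066810 scored 1.63 and 1.07. The member from 25959230 scored 0.72 and 0.20, and that from 18545613 scored 0.87 and 0.37.

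**Figure D5:**
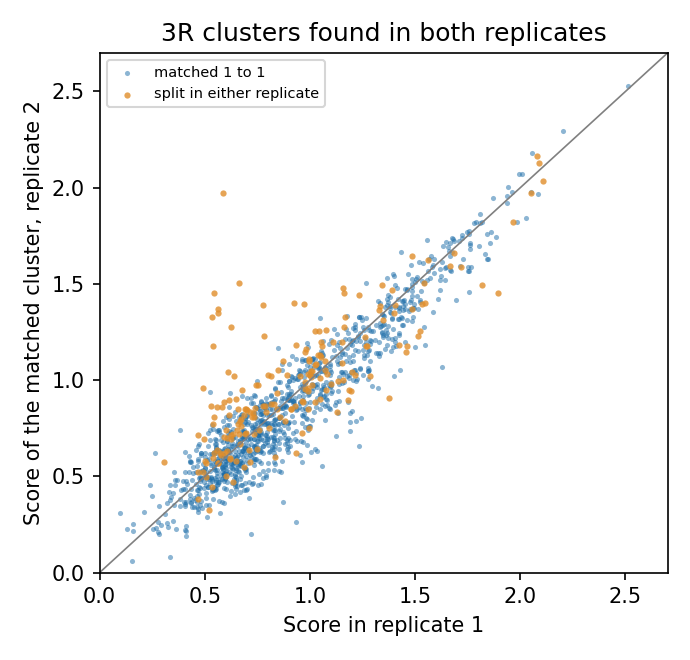
Score of each of the 1265 members in replicate 1 (horizontal) and of its matched cluster in replicate 2 (vertical), on the authors' score scale; members matched 1 to 1 and members split in either replicate are coloured apart, and the line marks equal scores. Most points lie along the line, and the highest points above it are split members.

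Scores of neighbouring members showed little relation in rank. Between the mean score of a member and that of the next one along the arm, rho was 0.02 over 1264 pairs. Counting each cluster of replicate 2 once, it was 0.02 for 199 neighbours under 2 kb apart, -0.04 for 495 at 2 to 10 kb and 0.01 for 514 at 10 kb or more. Strong and weak clusters therefore lay side by side, as they did to the right of the Antennapedia span, where a cluster scoring 0.21 in replicate 1 and 0.32 in replicate 2 stood next to the domain of 1.87 and 1.95.

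The overlap that made a cluster a member was mostly deep. The shared part had a median of 96.8% of the width in replicate 1, 895 members shared 90% or more and 28 shared under 50%. Just inside the rule was a cluster from 7680985 to 7682452 that shared 17 bp and scored 0.55. Just outside it was one from 445113 to 446594, which missed a cluster of replicate 2 by 23 bp and scored 0.55 as well. Of the 122 clusters of replicate 1 outside the rule, 30 lay within 1 kb of a cluster of replicate 2 and 23 lay more than 10 kb from any.

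Clusters in 1 replicate alone had lower medians of width and score on this arm than those in both. A wider cluster meets the 1 bp rule more easily, and score rose with width. Neither difference is therefore independent of the rule, and both are given as a description. In replicate 1 the 122 lone clusters had median values of 1713.5 bp and 0.55, beside 3184 bp and 0.84 for those in both lists. In replicate 2 the 116 lone clusters had 1684 bp and 0.55, beside 3196 bp and 0.80. The widest lone cluster had 3522 bp in replicate 1, and that of replicate 2 had 6188 bp. In replicate 1 the highest, from 8330618 to 8332726, scored 0.92 and lay 39235 bp from the nearest cluster of replicate 2. The next, from 17856443 and from 24699907, scored 0.85 and 0.77. In replicate 2 the cluster from 17127594 to 17129658 scored 1.93, which ranked 16th of 1392 on the arm, and replicate 1 had no cluster there, its nearest being 1635 bp away. The replicate-set list held it with a score of 1.49. The following ones in replicate 2, from 21149669 and 8967459, scored 0.94 and 0.86. Neither Hox span held a cluster of 1 replicate alone.

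The replicate-set list had 1607 clusters on 3R over 27.1% of the arm. Of these, 1145 (71.3%, 95% Wilson interval 69.0 to 73.4) met a cluster in each replicate and held 89.6% of its covered bases. There were 107 that overlapped replicate 1 only, 108 that overlapped replicate 2 only and 247 (15.4%) that overlapped neither, with a median width of 1323 bp and a median score of 0.37. In this list the Antennapedia span was covered to 1.35% and the bithorax span to 2.31%.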

How the data were processed

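The submitters' processing notes name Bowtie 0.12.7. Per the file headers, coordinates are those of FlyBase release 5. The authors deposited 3 lists of clusters with a score each. The caller, its thresholds, the score formula, the way replicates were combined and the read depth are, in the sources used here, not given, so the precision that depth gives is unknown. Per the labels, each input served the authors in calling; its reads were not analysed here. Score differences raised to base 2 gave ratios of whole numbers (denominators up to 20000, relative tolerance 1e-12) for every cluster of replicate 1, 99.97% of those of replicate 2 and 91.9% of those of the replicate set, against at most 0.44% with base e or 10.

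Members were matched to the replicate 2 cluster that shared most bases. Covered share is bases under clusters over the length in the file header. No test was made, because both libraries are of 1 condition. Alternatives changed the overlap, the clusters used, the windows and the span bounds. Regions named in the text are the 10 of highest score and the 10 widest, the 5 of lowest score, the 5 of largest score difference, clusters in or near the spans, the 5 longest free stretches, the 5 densest and sparsest windows and the 3 highest clusters of 1 replicate alone. The 5 largest differences among members matched 1 to 1 were added after the values were seen. The members, spans and lists were chosen with earlier results of these data known. The interval code was checked on simulated lists. The tools were scipy 1.17.1, pandas 2.3.3 and numpy 2.4.6 under Python 3.11.15, with matplotlib 3.10.9 for the plots.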

Additional observations from a re-analysis of the deposited data

How the results depend on the processing

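Of 64 values from 14 alternative settings, 28 moved by no more than the spread between replicates and 36 moved by more. For the overlap its interval took the place of that spread, and for rho the second decimal. A change of sign was looked for in the end difference only, where none occurred, since shares and densities cannot be negative. The spread is small over 2 replicates, so small shifts count as moves. Leaving out 1 replicate moves a mean of 2 by less than their SD. For coverage, density and the end difference, those settings could therefore only count as unmoved, and they say nothing on stability. The Antennapedia span lay below all windows of its length in each setting in which that rank was computed, other than the widened span. Scores at or above the list median gave 15.6% of 3R covered, 22.2 clusters per Mb, 0% of the Antennapedia and 0.10% of the bithorax span, 1.23% of windows at or below the bithorax span, 5.15 percentage points between the ends and a rho of 0.85; fewer clusters enter. Merging within 500 bp gave 22.6% and 45.4 per Mb. The replicate-set list gave 27.1%, 57.6 per Mb, 1.35% and 2.31% of the spans and 0.59% of windows for the bithorax span. Clusters found in both replicates gave 21.8%, 45.5 per Mb and 8.41 percentage points between the ends. Counting 10 kb windows that hold a cluster, which count whole, gave 50.4% of the arm, 2.44% and 9.09% of the spans, 1.11% of windows for the bithorax span and 17.5 percentage points. Leaving out the 2 Mb ends gave 0.70% of windows for the bithorax span, and windows laid end to end gave 0%, of 82 windows. Trimming the spans gave 0% and 0.73% covered and 0.52% of windows for the bithorax span. Widening them gave 5.52% and 8.26% covered and 0.26% and 3.22% of windows. Ends of 1 Mb gave 3.91 percentage points. The overlap fell to 83.3% and rho was 0.92 with 50% reciprocal overlap, and rho was 0.91 for clusters matched 1 to 1. Where no construction is named, the cause was not tested.

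With either replicate left out, 3R was covered to 22.5% to 22.6% with 49.7 to 49.9 clusters per Mb and an end difference of 8.70 to 8.95 percentage points. The spans were covered to 0.95% to 1.03% and 1.95% to 2.15%, with 0% and 0.59% to 0.63% of windows at or below them. No paired analysis was possible because no values of the inputs, whose replicate numbers match those of the ChIP, were compared with ChIP values. The planned comparison with gene positions was not run, since no annotation of release 5 was used here. Depth is unknown, and an absence of clusters says only that none was called.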
